A study of Mus musculus with 6 samples.

Results

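The cell cycle genes described here are 36 genes that dividing cells switch on, measured in regulatory T cells (Tregs) of 9-day-old mice. They were taken by symbol from a count table of 49315 genes and split by phase into 11 S phase genes, 23 mitosis genes and 2 others, Stmn1 and Hmgb2. All 36 were found under 1 Ensembl ID each, and all were among the 13572 genes tested. The table held bulk RNA-seq counts of 6 libraries, named by tissue and letter: skin Tregs A, B and C, and Tregs A, B and C from the skin-draining lymph nodes (SDLN). Values of a group are given in the order of these letters. Every mouse carried the Foxp3-GFP reporter, in which a green fluorescent protein is made where Foxp3 is expressed, and the labels name no treatment. Each library pooled cells of 3 mice, which were enriched for CD45+ cells on beads and sorted as live CD45+ CD4+ Foxp3-EGFP+ cells. The labels give all libraries the same batch number. They name no strain, and the study's methods place all mice on a C57BL/6J background. The Foxp3 reporter line described there also carries the diphtheria toxin receptor, and whether these mice were of that line is not stated. Whether pools of different libraries shared mice is not stated. The p-values set a difference against the spread between these libraries, estimated with help from all genes tested.

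The skin libraries were shallower and held fewer genes. Total counts were 3748669 to 11741784 in skin and 47243498 to 116158706 in SDLN, and 2911 to 5317 against 12397 to 13002 genes reached 1 CPM (counts-per-million, relative to the total of a library). The floor was set at 3 counts, and a gene at or under it counts as not detected. It lay at 0.255 to 0.800 CPM in skin and at 0.0258 to 0.0635 CPM in SDLN. It covers counting error only, and how reads copied from the same molecule were counted is not stated. Foxp3 had counts of 0, 330 and 1 in skin A, B and C, so that the gene behind the sort was at the floor in both skin A and skin C. In SDLN it had counts of 12208, 10133 and 1788.

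A cell that enters division first copies its DNA in S phase and then separates the copies in mitosis. In S phase the MCM helicase opens the double helix, PCNA clamps the polymerases to DNA, and ribonucleotide reductase and thymidylate synthase supply the nucleotides. In mitosis cyclin B with CDK1 starts the process, Aurora and Polo kinases and kinesin motors build the spindle, and the BUB proteins hold the chromosomes back until all are attached. Transcription of S phase genes is largely under E2F factors, and that of mitosis genes under complexes that bind CCAAT boxes and CHR elements. Tregs of the neonatal skin are known to divide as they accumulate there.

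The promoters of the members are shown first, because the counts played no part in finding their motifs. The shares with CHR and E2F matches differed between the phases, which was not tested. RefSeq promoter windows (GRCm38.p6), reaching from 250 bases before to 50 bases after the annotated start, were available for 30 of the 36 members in 31 windows. Mcm4, Ccna2, Tpx2, Aurkb, Kif20a and Stmn1 had no entry. The motifs searched on both strands were CCAAT for the CCAAT box, TTTGAA or TTCGAA for the CHR, and TTCCCGC or TTGGCGC for E2F. A CCAAT box was found in 17 of 19 windows of mitosis members (89.5%) and 9 of 11 windows of S phase members (81.8%), against 37.4% of all 32851 windows. A CHR was found in 15 mitosis windows (78.9%) and 2 S phase windows (18.2%), against 19.2% of all windows. All 15 of those mitosis windows held a CCAAT box as well, a pairing that 7.52% of all windows had. E2F matches ran the other way, with 6 S phase windows (54.5%), 4 mitosis windows (21.1%) and 6.81% of all windows. Mcm7 had 2 windows and every other matched member 1. Matches to different motifs shared bases at 1 place each in a window of Mcm7, Ccnb1 and Cdca8. A match is a run of letters and not a measured binding site.

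**Figure D1:**
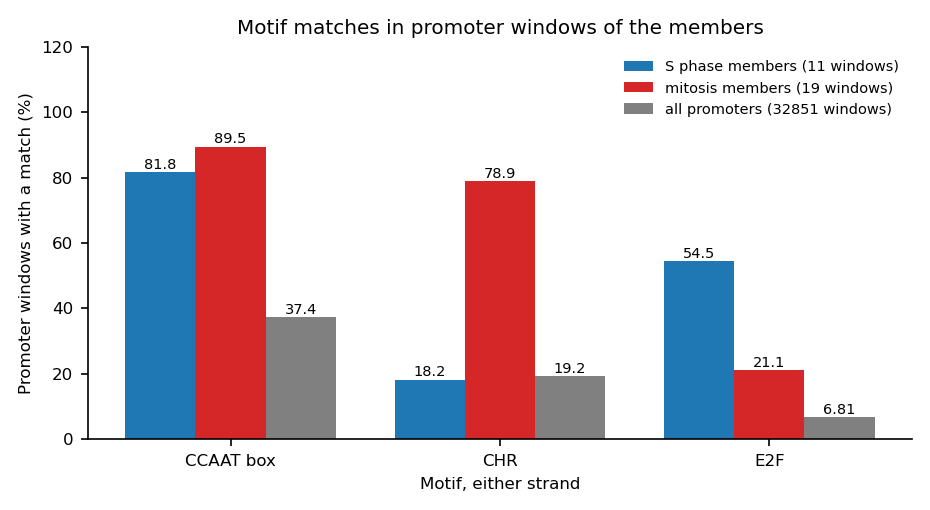
Share of promoter windows (%) with at least 1 match to each of 3 motifs on either strand, for S phase members, mitosis members and all windows. The CHR bar stands at 78.9% for mitosis members and at 18.2% for S phase members, close to the 19.2% of all windows.

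The windows with the most matches are printed for 1 S phase and 2 mitosis members, 5′ to 3′ on the strand of the gene, with the matches in capitals. A window of Mcm7 had as many matches as that of Mcm3, which was taken for its higher SDLN mean. Mcm3 (chr1:20820263-20820562, minus strand) encodes a subunit of the MCM helicase and its window held 3 CCAAT boxes and 3 E2F matches, with an E2F match on each strand sharing bases near the 3′ end. Top2a (chr11:99024140-99024439, minus strand) encodes the topoisomerase that untangles sister chromosomes and its window held 6 CCAAT boxes and 4 CHR matches. Ube2c (chr2:164769679-164769978, plus strand) encodes the ubiquitin-conjugating enzyme of the anaphase-promoting complex and its window held 6 CCAAT boxes, of which a pair on opposite strands shared bases, and 1 CHR match.
Mcm3: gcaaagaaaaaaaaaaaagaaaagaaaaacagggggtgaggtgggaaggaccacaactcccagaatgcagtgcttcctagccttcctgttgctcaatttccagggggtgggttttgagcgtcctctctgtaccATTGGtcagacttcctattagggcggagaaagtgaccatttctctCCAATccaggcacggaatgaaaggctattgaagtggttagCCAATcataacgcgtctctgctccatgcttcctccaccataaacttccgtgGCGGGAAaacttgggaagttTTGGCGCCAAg
Top2a: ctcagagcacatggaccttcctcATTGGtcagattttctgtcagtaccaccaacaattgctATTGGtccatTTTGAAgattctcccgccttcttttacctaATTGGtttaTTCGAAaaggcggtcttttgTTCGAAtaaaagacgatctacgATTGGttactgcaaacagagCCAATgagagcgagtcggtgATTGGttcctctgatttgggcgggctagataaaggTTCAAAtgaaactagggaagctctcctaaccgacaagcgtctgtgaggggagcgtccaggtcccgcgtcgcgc
Ube2c: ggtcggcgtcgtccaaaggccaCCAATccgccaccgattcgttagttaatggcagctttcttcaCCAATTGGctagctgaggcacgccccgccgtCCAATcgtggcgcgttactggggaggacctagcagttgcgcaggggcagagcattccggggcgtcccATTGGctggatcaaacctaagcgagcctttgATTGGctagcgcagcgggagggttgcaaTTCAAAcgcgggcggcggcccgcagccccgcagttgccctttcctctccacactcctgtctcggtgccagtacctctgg

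In SDLN Tregs all 36 members were expressed, and for most of them the levels differed little between libraries. Their SDLN means ran from 33.4 to 644 CPM with a median of 103 CPM, against a median of 22.2 CPM over all genes tested. The SD over the 3 SDLN libraries was 2.21% to 50.5% of the mean, with a median of 17.2%. Per kilobase of exon sequence, which allows genes to be compared, the highest SDLN mean level was that of Hmgb2, a chromatin protein that bends DNA, at 192 CPM per kb. It was followed by the ribonucleotide reductase subunit Rrm2 at 149, Mcm6 at 138, the B-type cyclin Ccnb2 at 122 and the microtubule-destabilizing protein Stmn1 at 116 CPM per kb. The 3 SDLN libraries of Hmgb2 lay above those of Rrm2 on this scale, whereas the ranges of Rrm2 and Mcm6 overlapped. Cenpf, a large kinetochore protein, was lowest at 2.32 CPM per kb.

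In skin Tregs the same genes were mostly either well detected or missing. Of the 108 member values in the 3 skin libraries, 47 were counts of 0, 6 were counts of 1 to 3, 4 were counts of 4 to 99 and 51 were counts of 100 or more. Skin A held 8 of the 36 members over the floor, skin B held 22 and skin C held 25, whereas each SDLN library held all 36. With all libraries thinned at random to 3748669 counts, the SDLN libraries still held all 36, with no member below 100 counts, and the skin libraries held 8, 21 and 25. Thinning bears on sequencing depth, and loss of molecules before sequencing was not tested. By phase, skin A, B and C held 2, 9 and 9 of 11 S phase members and 4, 11 and 14 of 23 mitosis members.

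Which members were present differed between the skin libraries. Only 6 members were over the floor in all 3 skin libraries: Rrm2, Tyms, Top2a, Ccnb2, Stmn1 and Hmgb2. A further 12 were over the floor in skin B and C but not A, and 7 were at the floor in all 3. Set against the 3 SDLN values of the same gene, 70 of the 108 skin values lay below the lowest, 25 above the highest and 13 in between. In bulk samples, fewer cells that express a gene and less RNA of it per cell cannot be told apart.

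**Figure D2:**
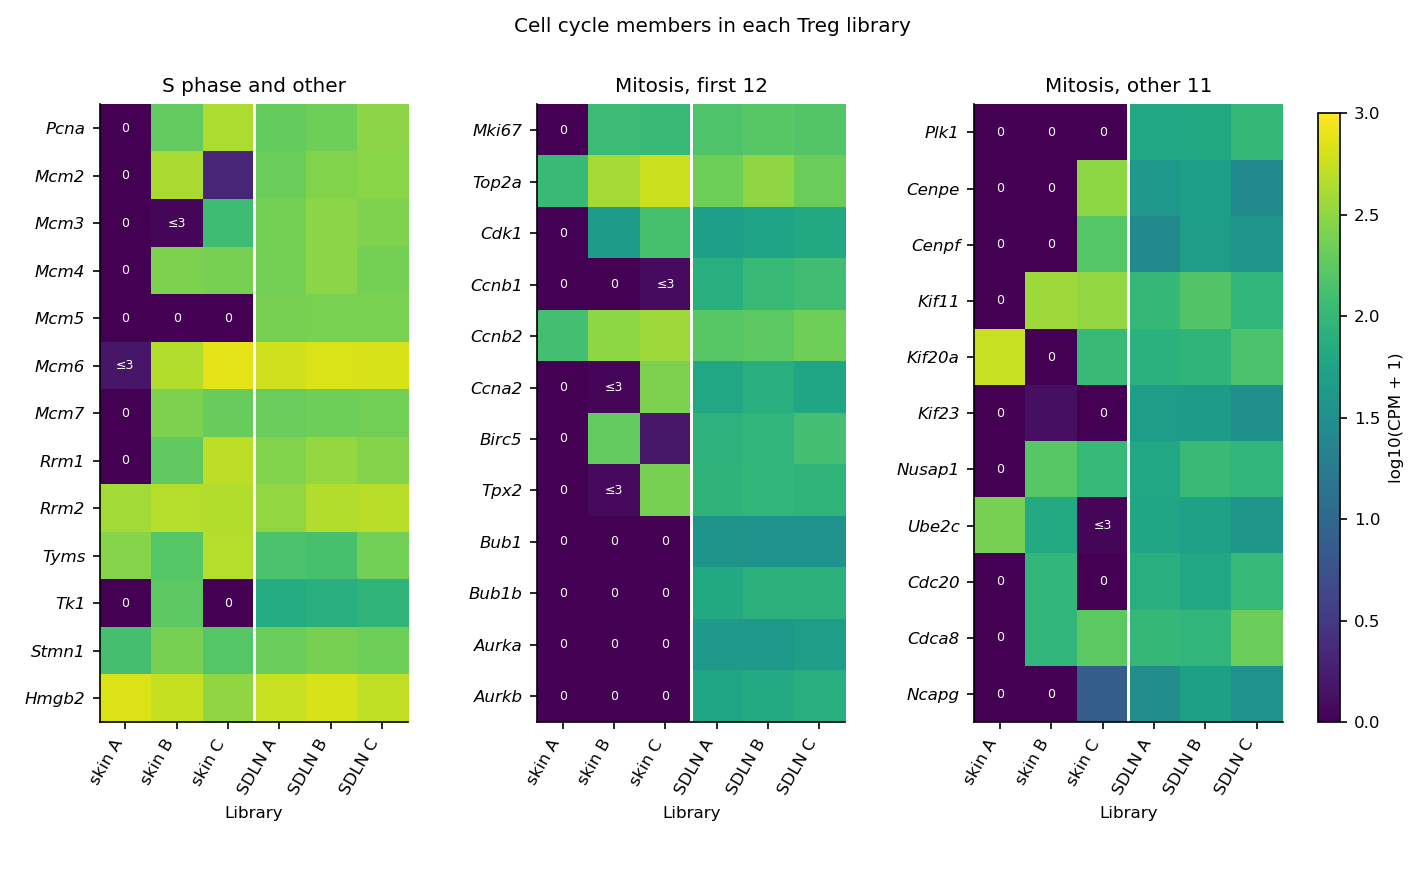
Level of the 36 members as log10(CPM + 1) in each of the 6 libraries, with 0 or ≤3 printed where the count was at the floor. Every SDLN cell is filled, whereas skin A holds 8 members over the floor, skin B 22 and skin C 25.

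The edgeR test called 8 of the 36 members lower in skin Tregs, with a threshold of 0.05 on the adjusted p, and none higher. The lower share of 22.2% stood below the background, since 45.3% of all genes tested were called lower and 1.04% higher. Without adjustment, at a p of 0.05, the counts were also 8 lower and 0 higher, and DESeq2 called the same 8 genes. They were Mcm5, Ccnb1, Bub1, Bub1b, Aurka, Aurkb, Plk1 and Kif23, that is 1 of 11 S phase members (9.09%) and 7 of 23 mitosis members (30.4%). The count moved between 5 without SDLN A and 14 without skin C. It was 12 without skin B and 6 without SDLN B.

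Much of the background lay among genes of lower level, so the count was also read by SDLN level. At 30 to 100 CPM, 7 of 17 members were called lower, beside 31.8% of all genes in that class. At 100 to 300 CPM it was 1 of 16 members, beside 10.6%, and at 300 to 1000 CPM none of 3 (Mcm6, Rrm2 and Hmgb2), beside 3.09%. Counts this small were not tested against their class. Detection followed the same classes. At 100 to 300 CPM, 5, 13 and 15 of the 16 members were over the floor in skin A, B and C (31.2%, 81.2% and 93.8%), beside 39.4%, 77.3% and 71.0% of all genes there. At 30 to 100 CPM, it was 1, 6 and 7 of 17 members (5.88%, 35.3% and 41.2%), beside 21.0%, 49.7% and 43.0% of all genes.

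**Figure D3:**
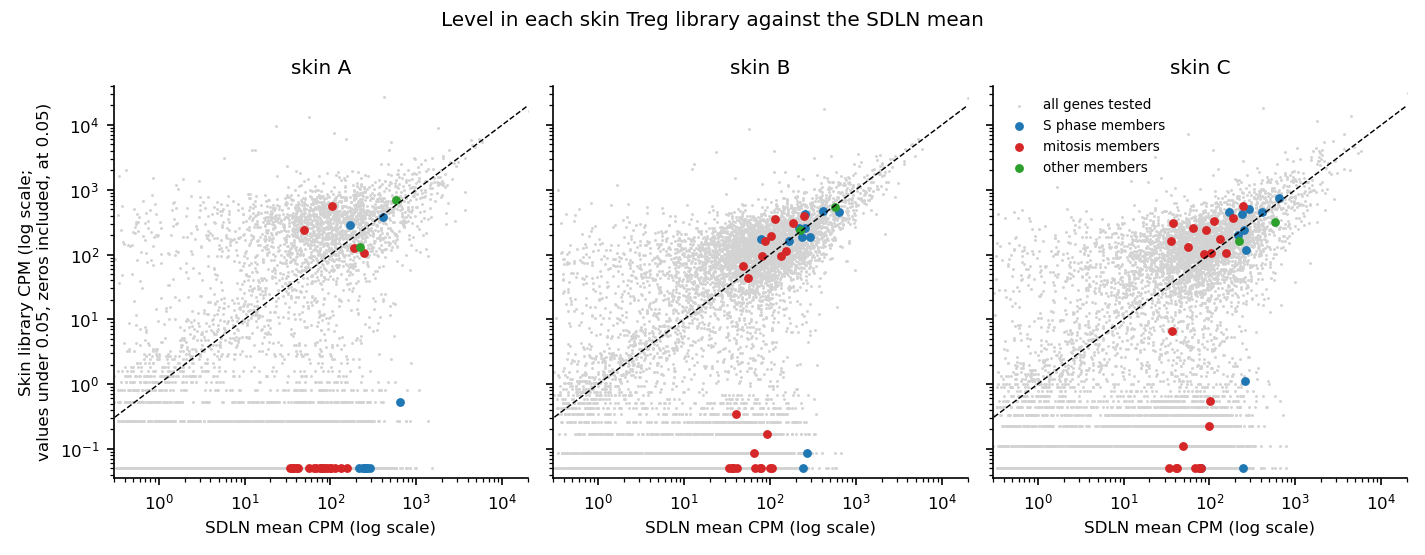
CPM in each skin library against the SDLN mean CPM, both on log scales, for all 13572 genes tested (grey) and the 36 members (S phase blue, mitosis red, other green), with the dashed line at equal levels and values under 0.05 CPM drawn at 0.05. Members at 0 counts lie along the bottom, and the others lie on both sides of the line, with Mcm2 far below it and Cenpe above it in skin C.

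The median log2 fold change, skin over SDLN, was -0.35 over the members and -2.21 over all genes tested. With genes at the floor in all skin libraries set to the mean skin floor, the medians were -0.35 and -1.31. Over the 1646 genes above the floor in every skin library the median was 0.30. The groups did not overlap in CPM for 11 of the 36 members (30.6%), all lower in skin, against 55.9% of all genes tested. These were the 8 called members together with Mcm3, Mki67 and Ncapg.

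The members were also summed by phase. The 11 S phase members summed to 668, 2549 and 3142 CPM in skin, versus 2739, 3213 and 3276 CPM in SDLN. Skin A and B lay below the SDLN libraries and skin C within them, and the skin mean of 2120.0 ± 1290.0 CPM was 68.9% of the SDLN mean of 3076 ± 293 CPM (SD, n = 3 each). The 23 mitosis members summed to 1028, 1828 and 2850.0 CPM in skin and to 1765, 2110.0 and 2182 CPM in SDLN. Here skin A was lowest, skin B lay within the SDLN range and skin C above it, and the skin mean of 1902 ± 913 CPM was 94.2% of the SDLN mean of 2019 ± 223 CPM. The sums in skin A rested on few genes, with 56.9% of the S phase sum from Rrm2 and 53.7% of the mitosis sum from the kinesin Kif20a. In SDLN no member gave more than 22.4% of an S phase sum or 15.1% of a mitosis sum.

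The balance between the phases was steady in SDLN and unsteady in skin. The ratio of the mitosis sum to the S phase sum was 0.644, 0.657 and 0.666 in SDLN, versus 1.54, 0.717 and 0.907 in skin. Every skin library lay above every SDLN library, but skin B did so narrowly, and single genes weigh on this order. Mcm5, part of the S phase sum, was at 0 counts in each skin library, against a mean of 245 CPM in SDLN. Of the mitosis sum, Kif20a gave 53.7% in skin A and Top2a 21.3% in skin B. Whether the order holds without single genes was not tested. All 36 members together took 0.251%, 0.516% and 0.647% of the counts in skin, versus 0.527%, 0.622% and 0.619% in SDLN. Skin A stood far below the other libraries, skin B just below the SDLN range and skin C above it.

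**Figure D4:**
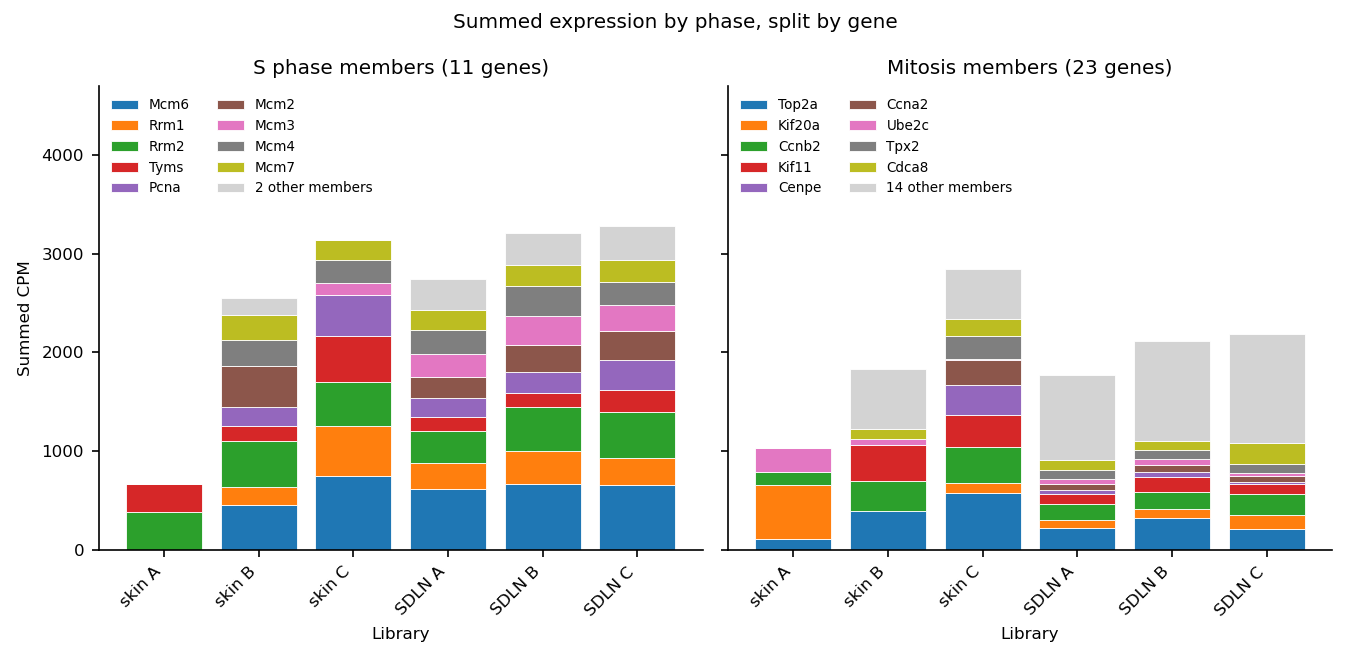
Summed CPM of the S phase members (left) and mitosis members (right) in each library, stacked by gene for the 9 members with the highest single value and with the rest in light grey. Skin B and C reach heights near the SDLN bars with fewer segments, except that skin C stands above them for mitosis. The bars of skin A are made of 2 S phase and 4 mitosis members.

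Of the S phase members, the MCM helicase genes showed unlike patterns in skin, which were not tested against each other. MCM2 to MCM7 form the 6-part ring that unwinds DNA, and the 6 genes stood between 204 and 669 CPM in the SDLN libraries. Mcm5 (ENSMUSG00000005410, chr8:75109569-75128439, GRCm38) was at a count of 0 in each skin library, against 239, 249.5 and 246 CPM in SDLN A, B and C, a mean of 245 ± 5.41 CPM (SD, n = 3). It was the only S phase member called lower, with an adjusted p of 0.00632 in edgeR. No fold change is given for a gene at the floor in every skin library, since it would depend on the prior count. Mcm5 was called lower in all 14 alternative analyses that tested it, with adjusted p from 2.75e-23 to 0.0459. A further alternative, with at least 10 counts in every library, tested only the 6 members over the floor throughout.

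Its partners were present in 1 or 2 skin libraries. Mcm6 was at 0.533, 449 and 750.0 CPM in skin, versus 613, 669 and 650.2 CPM in SDLN, so that skin C exceeded all SDLN libraries and skin A was at the floor. Mcm4 was at 0, 257 and 240.4 CPM in skin, versus 238, 297 and 233 CPM in SDLN. Mcm7 was at 0, 254 and 201 CPM in skin, versus 204, 217 and 226 CPM in SDLN. For both, skin A was at 0 and the other skin libraries stood close to the SDLN range. Mcm2 was at 0, 418 and 1.11 CPM in skin, versus 210.2, 272 and 292 CPM in SDLN, so that skin B alone held more than 10 counts. Mcm3, whose promoter is printed above, was at 0, 0.0852 and 116 CPM in skin, versus 237, 299 and 265 CPM in SDLN, so that skin C alone was over the floor and no skin library reached the SDLN range. None of these 5 passed the test, with adjusted p from 0.648 for Mcm3 to 0.965 for Mcm7. In alternatives Mcm2 was called lower with limma voom (adjusted p 0.0442) and without skin B (0.0355), and Mcm3 without skin C (0.00452). Mcm7 shares exon bases with Cops6 and Ap4m1 on the other strand, and the strand setting of the counting is not stated.

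Rrm2 (ENSMUSG00000020649, chr12:24708241-24714146) was the most even S phase member. It encodes the small subunit of ribonucleotide reductase, the enzyme that makes deoxyribonucleotides. Rrm2 was at 380.4, 466 and 453 CPM in skin, versus 324, 445 and 469 CPM in SDLN, with means of 433 ± 46.1 and 412 ± 78.0 CPM (SD, n = 3 each). All skin libraries lay within the SDLN range, and the log2 fold change was 0.09 (SE 0.497, adjusted p 0.958 in edgeR). Its partner Rrm1, the large subunit, was at 0, 183 and 499 CPM in skin, versus 267, 334 and 276 CPM in SDLN. Skin A was at 0, skin B below and skin C above the SDLN libraries.

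Tyms (ENSMUSG00000025747, chr5:30058202-30073617), which encodes thymidylate synthase, was the other S phase member present throughout. It was at 287, 159.6 and 460.0 CPM in skin, versus 141, 135 and 228 CPM in SDLN. Skin A and C exceeded every SDLN library, skin B lay within them, and the log2 fold change was 0.89 (SE 0.784, adjusted p 0.517). Pcna, the polymerase clamp, was at 0, 188 and 421 CPM in skin, versus 196, 219 and 299.6 CPM in SDLN, so that skin A was missing, skin B was just below and skin C above the SDLN libraries (log2 fold change 0.01, SE 2.11). Tk1, the thymidine kinase of the salvage route, was at 0, 175 and 0 CPM in skin, versus 70.7, 77.4 and 90.3 CPM in SDLN. Skin B alone held it, at a level above all SDLN libraries, and it was called lower with voom and without skin B. Afmid, which overlaps Tk1 on the other strand, was over the floor in skin B alone as well, at 192 counts.

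The kinase and checkpoint genes Bub1, Bub1b, Aurka, Aurkb and Plk1 were among the 7 mitosis members called lower, whereas the kinase gene Cdk1 was not called (adjusted p 0.967). Bub1 (ENSMUSG00000027379, chr2:127801122-127831865) and Bub1b (ENSMUSG00000040084, chr2:118598211-118641591) encode the kinase and the pseudokinase of the spindle checkpoint. Bub1 was at 34.4, 32.9 and 33.0 CPM and Bub1b at 65.0, 83.9 and 84.2 CPM in SDLN A, B and C, and both were at 0 counts in every skin library. Aurka (ENSMUSG00000027496, chr2:172356190-172370535) encodes the Aurora kinase of the spindle poles and was at 40.8, 39.4 and 45.5 CPM in SDLN. Aurkb (ENSMUSG00000020897, chr11:69045647-69051664) encodes the Aurora kinase of the chromosomal passenger complex and was at 57.8, 66.7 and 77.1 CPM in SDLN. Plk1 (ENSMUSG00000030867, chr7:122159439-122169873), the Polo kinase that drives entry into mitosis, was at 62.7, 65.6 and 99.3 CPM in SDLN. All 3 of these kinase genes were at 0 counts in every skin library too. The adjusted p in edgeR was 0.00345 for Bub1, 0.0101 for Bub1b, 0.00436 for Aurka, 0.00863 for Aurkb and 0.0104 for Plk1. Bub1, Aurka and Aurkb were called in 14 of the 14 alternatives that tested them, Bub1b in 13 and Plk1 in 12. Bub1b lost the call without SDLN A, and Plk1 lost it without SDLN A and without SDLN B.

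The 5 genes lay in the lower part of the members' range, at SDLN means under 100 CPM. Among all genes at 30 to 100 CPM in SDLN, 28.7% were at the floor in every skin library, beside 6 of the 17 members there. Kif23 (ENSMUSG00000032254, chr9:61915905-61946774), a kinesin of the central spindle needed for cytokinesis, had 4 counts in skin B and 0 in skin A and C, and 47.2, 43.3 and 31.1 CPM in SDLN A, B and C. It was called lower with an adjusted p of 0.0126.

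The B-type cyclins went apart. Ccnb1 (ENSMUSG00000041431, chr13:100778650-100786570) had counts of 0, 0 and 2 in skin A, B and C and stood at 74.6, 103 and 119.5 CPM in SDLN A, B and C. It was called lower with an adjusted p of 0.0177 in edgeR, and lost the call when any 1 SDLN library was left out. Ccnb2 (ENSMUSG00000032218, chr9:70407692-70421547), its close relative, was present in all libraries, at 127, 309 and 365 CPM in skin, versus 167, 175 and 217 CPM in SDLN. Skin B and C exceeded every SDLN library and skin A lay below them, with a log2 fold change of 0.63 (SE 0.798, adjusted p 0.706). The fold changes of the 2 cyclins were not tested against each other.

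Their partner kinase gene Cdk1 was at 0, 43.9 and 132 CPM in skin, versus 48.8, 53.8 and 65.2 CPM in SDLN, so that skin A was at 0, skin B below and skin C above the SDLN libraries. Ccna2, the cyclin that acts in S phase and early mitosis, was at 0, 0.0852 and 254 CPM in skin, versus 60.1, 78.1 and 56.5 CPM in SDLN. Only skin C held it, above all SDLN libraries, and without skin C it was called lower. Ccna2 overlaps Exosc9 on the other strand, and Exosc9 was likewise over the floor in skin C alone, at 447 counts. The pair shares 510 of the 4083 exon bases of Ccna2, and reads there are uncertain.

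Mki67 and Top2a, both common marks of dividing cells, showed unlike patterns, which were not tested against each other. Mki67 (ENSMUSG00000031004, chr7:135689784-135716361), which encodes the proliferation antigen Ki67 that coats mitotic chromosomes, was at 0, 114 and 106 CPM in skin, versus 147, 164 and 156 CPM in SDLN. Every skin library lay below every SDLN library, with means of 73.1 ± 63.4 and 156 ± 8.20 CPM (SD, n = 3 each). The log2 fold change was -0.89 (SE 2.10). Mki67 missed the threshold in edgeR, with an adjusted p of 0.882, and in each of 14 alternatives. Top2a (ENSMUSG00000020914, chr11:98992943-99024189) was at 106, 389.6 and 570.0 CPM in skin, versus 217, 319 and 209 CPM in SDLN. Skin A lay below and skin B and C above all SDLN libraries, with means of 355 ± 234 and 248 ± 61.4 CPM, and the log2 fold change was 0.70 (SE 0.865, adjusted p 0.697). Without skin C the log2 fold change turned to -0.17.

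The kinesin motor genes Kif11 and Kif20a were each present in 2 skin libraries. Kif11, the motor that pushes the spindle poles apart, was at 0, 359 and 329 CPM in skin, versus 97.5, 151 and 94.0 CPM in SDLN. Skin B and C exceeded every SDLN library, and without skin A the gene was called higher in skin, at 1.59 on the log2 scale with an adjusted p of 0.0372. With all libraries the log2 fold change was 1.22 (SE 2.15, adjusted p 0.82). Kif20a, a kinesin of the cleavage furrow, was at 552, 0 and 105 CPM in skin, versus 82.2, 91.7 and 141 CPM in SDLN. It was 1 of only 8 members in skin A and the highest mitosis member there. Kif20a shares 1271 exon bases with Cdc23 on the other strand, and reads there are uncertain. Cdc23 had 9, 1998 and 1700 counts in skin, versus 22488, 9916 and 10155 counts in SDLN.

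The kinetochore genes Cenpe and Cenpf were found in skin C alone. Cenpe, a motor that carries chromosomes along the spindle, was at 0, 0 and 304 CPM in skin, versus 38.4, 47.9 and 25.7 CPM in SDLN. Cenpf was at 0, 0 and 161 CPM in skin, versus 25.4, 46.0 and 36.1 CPM in SDLN. In skin C both exceeded every SDLN library, while skin A and B had 0 counts. Tpx2, which targets Aurora A to the spindle, was likewise over the floor in skin C alone, at 0, 0.170 and 239 CPM in skin, versus 87.9, 96.6 and 89.9 CPM in SDLN. Ncapg, a condensin subunit, was at 0, 0 and 6.64 CPM in skin, versus 28.3, 50.3 and 32.4 CPM in SDLN, and no skin library reached the SDLN range. Lcorl, which overlaps Ncapg on the other strand, had 516 counts in skin C and 0 in the other skin libraries.

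The passenger complex genes Birc5 and Cdca8, which encode survivin and borealin, were missing in skin A. Birc5 was at 0, 190.2 and 0.553 CPM in skin, versus 86.7, 93.8 and 125 CPM in SDLN, so that skin B exceeded the SDLN libraries and skin C had 5 counts. Cdca8 was at 0, 93.4 and 176 CPM in skin, versus 97.9, 92.6 and 213 CPM in SDLN, so that skin B and C lay within the SDLN range. Nusap1, a microtubule-binding spindle protein, was at 0, 165 and 102 CPM in skin, versus 62.7, 104 and 93.6 CPM in SDLN. Skin B was above the SDLN libraries and skin C within them.

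Of the genes of the anaphase-promoting complex, Cdc20 encodes an activator and Ube2c an E2 enzyme. Cdc20 was at 0, 96.6 and 0 CPM in skin, versus 77.5, 60.8 and 102 CPM in SDLN, with skin B alone over the floor and within the SDLN range. Ube2c was at 242, 67.4 and 0.111 CPM in skin, versus 57.4, 51.0 and 37.5 CPM in SDLN. Skin A and B exceeded the SDLN libraries, and skin C had 1 count. With all libraries, none of these kinesin, kinetochore, spindle and anaphase genes other than Kif23 passed the test. Some were called lower in an alternative, namely Birc5 and Cdc20 with voom and without skin B, Ncapg with voom and without skin C, and Tpx2, Cenpe and Cenpf without skin C. Their SE ran from 1.97 to 3.16 on the log2 scale.

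The 2 members outside the phases were present in every library. Hmgb2 (ENSMUSG00000054717, chr8:57511907-57515999) was at 686, 544 and 316 CPM in skin, versus 553, 656 and 518 CPM in SDLN, with means of 515 ± 187 and 576 ± 71.7 CPM (SD, n = 3 each). Skin A was above, skin B within and skin C below the SDLN range. The log2 fold change was -0.25 with the smallest SE of all members, 0.372, and an adjusted p of 0.764. Stmn1 (ENSMUSG00000028832, chr4:134468320-134473843) was at 129.9, 243 and 159 CPM in skin, versus 210.3, 245 and 216 CPM in SDLN. Skin B lay within the SDLN range and the other skin libraries below it (log2 fold change -0.30, SE 0.725, adjusted p 0.886).

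**Figure D5:**
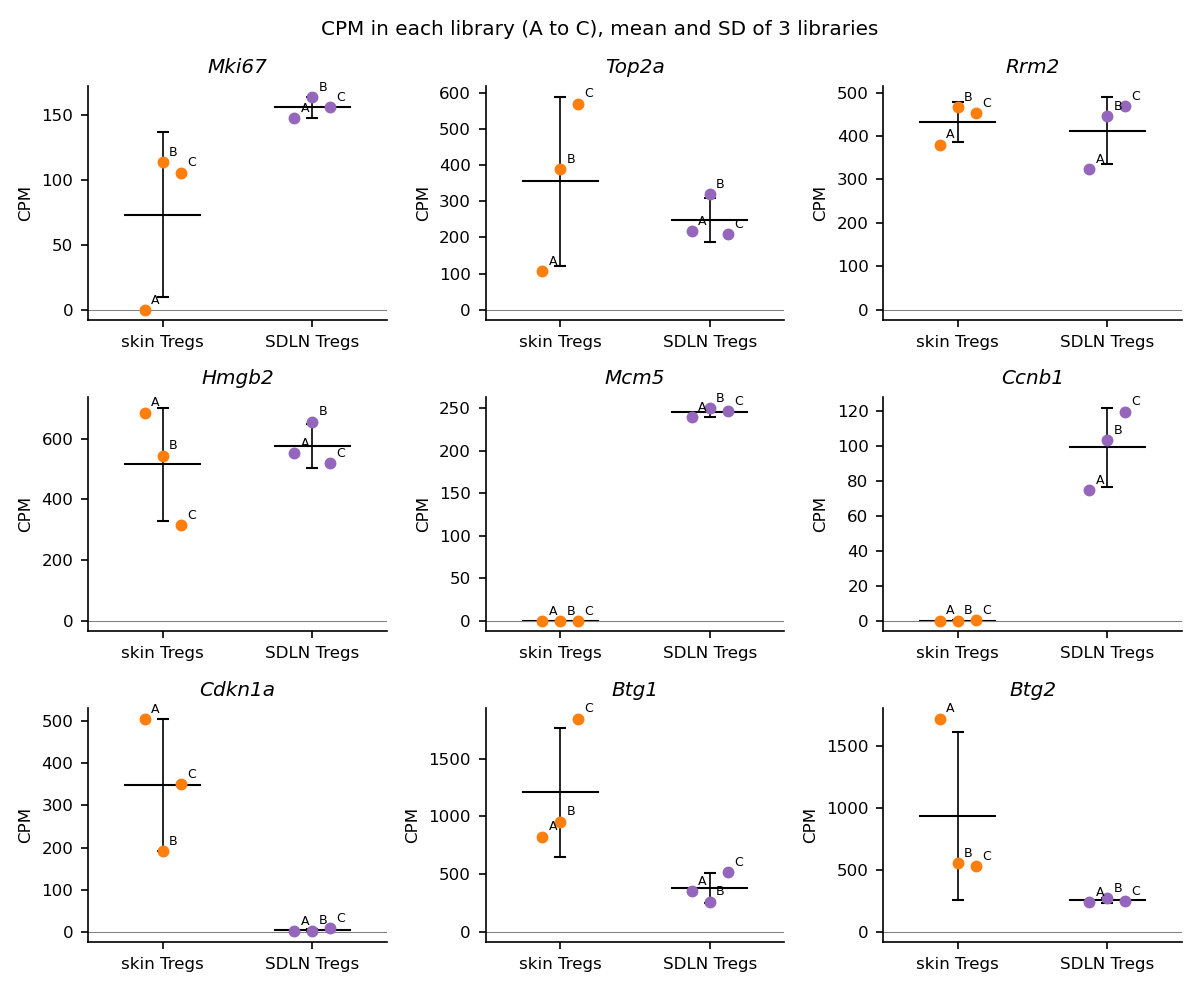
CPM in each library (points A to C), with the mean (line) and SD (bars) of 3 libraries, for 6 members and for the antiproliferative genes Cdkn1a, Btg1 and Btg2. Mcm5 and Ccnb1 lie at the floor in all skin libraries, Rrm2 and Hmgb2 overlap between the tissues, and Cdkn1a is high in skin alone.

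Beyond the members, 131 other cell cycle genes in 5 lists were read from the same fit, of which 129 were tested. Of these, 43 (33.3%) were called lower and 2 (1.55%) higher, beside the 45.3% and 1.04% of all genes tested, and 38 of the 43 were at the floor in every skin library. The 2 higher genes both restrain division. Cdkn1a, which encodes the CDK inhibitor p21, was at 504, 192 and 350.5 CPM in skin, versus 2.56, 4.20 and 9.84 CPM in SDLN. All skin libraries lay far above all SDLN libraries, with means of 349 ± 156 and 5.54 ± 3.82 CPM (SD, n = 3 each), and the log2 fold change was 5.87 (SE 1.13, adjusted p 0.00721 in edgeR). The call held in 15 of 15 alternatives. Btg2, an antiproliferative gene that responds to p53 and to growth signals, was at 1718, 556 and 529 CPM in skin, versus 239.7, 274 and 247 CPM in SDLN. Again the groups did not overlap, and the log2 fold change was 1.69 (SE 0.455, adjusted p 0.0241), with a call in 10 of 15 alternatives. Its relative Btg1 was at 826, 954 and 1848 CPM in skin, versus 356, 261 and 519 CPM in SDLN, without overlap, but its adjusted p of 0.0774 did not pass. Cdkn1a and Btg2 are also known to respond to cell stress. Tissue and the handling that each tissue needed cannot be told apart in this design.

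The 15 genes of the list of CDK inhibitors and antiproliferative genes summed to 3677, 2352 and 3541 CPM in skin and to 967, 894 and 1146 CPM in SDLN, so that every skin library was above every SDLN library. Of its 13 tested members 2 rose (15.4%) and 1 fell (7.69%), beside 1.04% and 45.3% of all genes tested. The gene that fell was Wee1, the kinase that restrains CDK1, at 0 counts in all skin libraries against 29.0, 15.6 and 20.0 CPM in SDLN (adjusted p 0.00329). Of the 12 G1 cyclin and kinase genes 1 fell (8.33%, beside 45.3% of all genes tested), Cdk7, the CDK-activating kinase (adjusted p 0.0301), which was called in 11 of the 14 alternatives that tested it and lost the call without SDLN A, B or C. The G1 kinase gene Cdk6 was at 183, 1453 and 921 CPM in skin, versus 203, 168 and 352 CPM in SDLN, and the D-type cyclin gene Ccnd2 at 95.0, 1413 and 828 CPM in skin, versus 1406, 1248 and 1413 CPM in SDLN. Neither passed the test, with adjusted p of 0.181 and 0.767. Ccne1, an E-type cyclin gene with a high skin mean, was present in skin B alone.

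Of 19 E2F and pocket protein genes 8 fell (42.1%, beside 45.3% of all genes tested) and none rose, all 8 at the floor in every skin library. Among them were Lin52 and Lin9, subunits of the complexes that control cell cycle promoters, and Rb1, the retinoblastoma gene, each with an adjusted p of 0.00322. The pocket protein gene Rbl1 was at 2.67, 232 and 358 CPM in skin, versus 66.8, 94.9 and 76.7 CPM in SDLN, with skin B and C above the SDLN libraries. Rbl2 and Tfdp2 were the other genes of the list with high skin means, and neither passed the test (adjusted p 0.986 and 0.814).

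Of 39 replication genes 11 fell (28.2%, beside 45.3% of all genes tested) and none rose. Dnmt1, the maintenance DNA methyltransferase, was at 0 counts in every skin library against 221, 294 and 169.5 CPM in SDLN A, B and C (adjusted p 0.00721), and lost the call without SDLN B. Ung, the uracil-DNA glycosylase, and Pola2, a subunit of the primase complex, were called lower as well (adjusted p 0.00763 and 0.00753). The highest skin means belonged to Pold1, Rfc5 and Lig1, a polymerase, a clamp loader and a ligase gene. Pold1 was at 614, 176 and 221 CPM in skin, versus 116, 108 and 64.2 CPM in SDLN, so that every skin library lay above every SDLN library, with an adjusted p of 0.149. Rfc5 and Lig1 had adjusted p of 0.815 and 0.993.

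Of 46 spindle, kinetochore and cytokinesis genes 22 fell (47.8%, beside 45.3% of all genes tested) and none rose. Racgap1, the partner of Kif23 at the central spindle, was at 0, 0.341 and 1.88 CPM in skin, versus 116, 163 and 99.6 CPM in SDLN (adjusted p 0.0471). Prc1, another central spindle gene, was at 0 counts in every skin library (adjusted p 0.00912), and the condensin gene Ncapd2 had at most 4 counts (adjusted p 0.0313). Racgap1 was called in 9 and Ncapd2 in 11 of the 14 alternatives that tested them. Both lost the call without SDLN A, B or C, and Racgap1 also without skin B and with no filter on low counts. By contrast, the condensin gene Smc4 was at 169, 694 and 652 CPM in skin, versus 586, 663 and 478 CPM in SDLN (adjusted p 0.987). The checkpoint gene Bub3 was at 534, 258 and 291 CPM in skin, versus 323, 264 and 485 CPM in SDLN, with overlap between the groups. Mad2l1, a checkpoint gene of the same pathway, was at 639, 0 and 186 CPM in skin, versus 72.9, 72.0 and 78.6 CPM in SDLN, so that skin A was high and skin B at 0.

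Markers of other cells were read as well, and the lower calls among them stand beside the 45.3% of all genes tested that were lower. The 20 myeloid markers summed to 35490.0 to 62020.0 CPM in skin and 716 to 999.6 CPM in SDLN, with 16 of 19 tested called higher and 1 lower, and none was at 0 in all libraries. The 15 T cell and Treg markers summed to 8592 to 13540.0 CPM in skin and 13150.0 to 14360.0 CPM in SDLN, with 1 of 15 higher and none lower. Of these markers Cd4, on which the cells were sorted, had counts of 0, 1861 and 2 in skin and 54756, 39115 and 14288 in SDLN, at the floor in skin A and C as Foxp3 was. The 7 CD8 and cytotoxic markers summed to 1112 to 1335 CPM in skin and 265 to 295 CPM in SDLN (2 of 5 tested higher, 3 lower). In skin the sum was all from Gzmb and Nkg7, with Cd8a, Cd8b1, Gzma, Prf1 and Klrk1 at 0 in each skin library. The 6 erythroid markers reached 137 to 842 CPM in skin and 59.5 to 122 CPM in SDLN, and none of 5 tested was called. In skin, B cell markers summed to at most 2.66 CPM (4 of 5 tested lower), endothelial to at most 25.9 CPM (none of 1 called) and keratinocyte to at most 0.0852 CPM (2 of 2 lower, Krt5 and Krt14 at 0 throughout). Double-positive thymocyte markers reached at most 0.332 CPM in skin and 0.604 CPM in SDLN, with none tested. Fibroblast markers reached 90.6 CPM in skin B (none of 2 called), and gamma delta T cell markers 117 CPM in skin C, all of it Trdc (1 of 2 lower). The part of these cells in the values of the members, and in those of Cdkn1a, Btg1 and Btg2, was not tested.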

How the data were processed

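The study's methods and the submitters' processing notes name Trimmomatic 0.36 for trimming, STAR 2.5.2b for mapping to GRCm38, and featureCounts (Subread 1.5.2) for counting reads in exons. What the authors deposited is a table of raw counts by Ensembl gene, not normalized. Neither the annotation release nor the strand setting nor the treatment of duplicate reads is given in the sources used here, and no molecular identifiers are described. Reads of overlapping genes on opposite strands are therefore uncertain.

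Symbols and positions came from GENCODE M21 (GRCm38), which named 49056 of 49315 genes. No 2 libraries were identical. The labels' tissue field reads skin for all samples, so groups came from titles, and the column letters A to C are not linked to the numbers in the titles. Libraries A, B and C had total counts of 3748669, 11741784 and 9033442 for skin and of 116158706, 72799278 and 47243498 for SDLN.

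CPM are relative to these totals, and means are given ± SD over 3 libraries. Skin was tested against SDLN with edgeR 4.0.16 (R 4.3.3; filterByExpr, TMM, robust glmQLFit, glmQLFTest), adjusted by Benjamini-Hochberg over the 13572 genes that were tested (threshold 0.05). SE were derived from the F statistic. The common dispersion was 2.04. On counts simulated for 13572 genes from these libraries, 200 of them shifted by 3 (log2), all of the shifted genes (100%) were recovered at a dispersion of 0.1, with 11 false calls, and 0% at a dispersion of 2. The 15 alternatives included DESeq2 1.42.0 and limma 3.58.1 voom.

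All members are named. In the other lists every gene called higher, the 3 called lower with the highest SDLN mean and the 3 with the highest skin mean are named. The members, lists and tests were chosen with earlier results of these data known.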

Additional observations from a re-analysis of the deposited data

How the results depend on the processing

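The 8 members called lower in skin Tregs were the same under DESeq2, DESeq2 size factors, TMMwsp, library size alone, no filter on low counts, a non-robust fit and libraries drawn down to the smallest total. Limma voom with quality weights called 13. A minimum of 10 counts in every library left 6 members to test and called 0, which follows from the missing genes being removed. Leaving out 1 library gave 5 (without SDLN A) to 14 (without skin C) members lower and 0 to 1 higher (Kif11, without skin A). Over all genes, the 6142 lower became 9 with the minimum of 10 counts and 3996 with libraries drawn down, and were 4983 to 7787 over the leave-outs. The 141 higher became 382 with DESeq2, 77 with no filter and 81 with the minimum of 10 counts, and were 324 without skin A and 71, 77 and 81 without SDLN A, B and C. Of the other cell cycle genes, 43 lower became 0 with the minimum of 10 counts, with 38 to 67 over the leave-outs, and 2 higher became 7 with DESeq2, 1 with no filter and 1 with the minimum of 10 counts, with 6 without skin A and 1 without each SDLN library. The 67 was reached without skin C. The summed levels in skin were 52.3% to 92.5% of SDLN for S phase and 70.7% to 116% for mitosis when 1 library was left out. Scaled by TMM they were 76.3% and 102%, and by DESeq2 size factors 74.8% and 101%. Summed per kilobase of exon they were 69.6% and 91.0%, and without the largest member 70.7% and 87.3%. The causes of the other changes were not tested.

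Of the 28 members that were not called, 16 changed the sign of their log2 fold change in at least 1 of the 15 alternatives. None of the 8 called members did, but with at most 4 counts in any skin library their sign could not turn. Their unchanged sign is therefore no measure of stability. The log2 fold change of Pcna was -0.019 with DESeq2 size factors, -0.14 with TMMwsp, -0.23 with library size alone, -0.046 with DESeq2, -2.63 with voom, -0.048 with no filter and -0.20 drawn down. Tpx2 was at -0.031 with TMMwsp, -0.19 with library size alone, -3.92 with voom and -0.12 drawn down. Rrm2 was at -0.034 with TMMwsp and -0.15 with the minimum of 10 counts, and Nusap1 at -0.016 drawn down. Voom gave -2.20 for Cdk1, -3.49 for Ccna2, -2.85 for Cenpe, -2.93 for Cenpf, -1.64 for Kif11, -1.68 for Kif20a, -2.58 for Nusap1 and -3.58 for Ube2c. With 1 library left out, the log2 fold change ran from -1.40 to 0.39 for Pcna, -0.82 to 0.074 for Mcm7, -1.73 to 0.26 for Rrm1, -0.24 to 0.16 for Rrm2, -14.97 to 0.079 for Tk1, -0.17 to 0.96 for Top2a, -1.41 to 0.70 for Cdk1, -10.29 to 1.30 for Ccna2 and -9.90 to 0.71 for Tpx2. It ran from -13.89 to 2.37 for Cenpe, -13.83 to 1.502 for Cenpf, -0.93 to 1.27 for Kif20a, -0.44 to 0.61 for Nusap1, -0.59 to 1.20 for Ube2c and -1.57 to 0.037 for Cdca8. Tk1, Ccna2, Tpx2, Cenpe and Cenpf each rested on 1 skin library (skin B for Tk1 and skin C for the others). Without it no skin library was over the floor, so the low ends of these 5 ranges depend on the prior count and are neither fold changes nor bounds. The median log2 fold change of the genes over the floor in all skin libraries was 0.30 in the main analysis and ran from 0.036 without skin C to 0.40 with DESeq2 size factors, with 0.18 under TMMwsp, 0.082 under voom and 0.077 with the minimum of 10 counts.

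A planned block on the label numbers was not run, since count columns are lettered and no source ties letters to numbers or says that letters mark shared mice. A block on the letters was added after the data were seen. The deviations of same-letter libraries from their group means (log2(CPM + 1), across the genes tested) correlated at 0.046 for A, -0.010 for B and 0.091 for C, and not every library correlated best with its own letter, so the letters were not taken as pairs. The block called 6 members lower and 0 higher, 5633 genes lower and 61 higher, and 36 of the other cell cycle genes lower and 1 higher. Under it the log2 fold change was -1.27 for Pcna, -1.09 for Cdk1, -8.45 for Ccna2, -8.18 for Tpx2, -9.39 for Cenpe, -9.19 for Cenpf, -0.81 for Kif20a, -0.99 for Nusap1 and -0.54 for Ube2c. Ccna2, Tpx2, Cenpe and Cenpf were at the floor in skin A and B and above every SDLN library in skin C. Their values under the block lean on the counts at the floor and are not read as fold changes. The main call was not made under the block for Ccnb1 (adjusted p 0.0773) and Kif23 (adjusted p 0.0536).

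With 3 libraries a group and a common dispersion of 2.04, 7 of the 8 called members were at the floor in every skin library, and a missing call does not show equal levels. The floor of 0.255 to 0.800 CPM in skin covers counting error only.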
